A study of Homo sapiens with 9 samples.

Results

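The 10 genes described here encode the desmosomal cadherins (the desmogleins DSG1, DSG2 and DSG3 and the desmocollins DSC1, DSC2 and DSC3), the plakophilins PKP1, PKP2 and PKP3, and desmoplakin (DSP). They were taken by gene symbol from the 16199 genes listed in at least 1 of 9 RNA-seq libraries of HaCaT keratinocytes. All 10 were listed in at least 1 library, and 8 of them passed the filter on low counts. HaCaT is an immortalised human skin keratinocyte line, given as wild type in the labels. Untreated cells in serum-free medium were compared with cells given epidermal growth factor (EGF, 10 nM) or bleogen pB1 (1 µM), each in serum-free medium for 24 h after the cells had become confluent, with 3 libraries per group. EGF is a ligand of the EGF receptor, and bleogen pB1 is a cactus peptide that the study describes as an agonist of the same receptor. The doses of both agents differed, so a difference between them is a difference between these doses. One line stands for keratinocytes here, and neither the labels nor the methods say that the libraries of a group came from separate cultures. The p-values then measure only the spread between these libraries, which may be technical. In RNA from whole cultures, fewer cells that express a gene and less RNA of it per cell cannot be told apart.

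Desmosomes are the spot-like junctions that tie the keratin filaments of neighbouring epithelial cells together. Desmogleins and desmocollins cross the membrane and bind those of the next cell, the armadillo proteins plakoglobin (gene JUP) and the plakophilins bind the cadherin tails from inside, and desmoplakin connects this plaque to keratin. In stratified skin the cadherins and plakophilins are made in layers, with DSG1, DSC1 and PKP1 most abundant in the upper epidermis, DSG3 and DSC3 in the lower layers, and DSG2, DSC2 and PKP2 in simple epithelia and heart as well.

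Levels are given as FPKM, the deposited counts scaled by transcript length and by how many fragments a library had in all, so that genes can be set beside each other. Tests used the deposited expected counts. The totals lay between 20288417 and 21320994 expected counts per library, so that a count of 3 is worth 0.141 to 0.148 CPM, the unit of counts corrected for library size. The 7 keratinocyte markers, which include KRT5, KRT14 and TP63, were all at a mean of at least 1 FPKM in every group and summed to between 5285 and 6576 FPKM per library. None of the fibroblast, melanocyte, endothelial or leukocyte markers reached a mean of 1 FPKM in any group. The 6 fibroblast markers summed to 1.42 to 1.80 FPKM in untreated libraries, 0.21 to 0.34 with EGF and 1.14 to 1.85 with bleogen pB1, with COL1A2 listed at 0 in both treated groups and LUM in the EGF group. The 4 endothelial markers summed to 0.24 to 0.26 FPKM in untreated and 0.03 to 0.17 in EGF-treated libraries, and the 4 melanocyte markers to 0.67 to 0.87 and 0.39 to 0.66. The 4 leukocyte markers summed to 0.48 to 1.18 FPKM in untreated and 0.47 to 0.91 in EGF-treated libraries, which overlapped. The fibroblast, endothelial and melanocyte sums moved with the EGF comparison, and their part in the results below was not tested.

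In untreated cells PKP1, DSP and DSG2 had the highest RNA levels of the 10. PKP1, which clusters desmosomal proteins at the membrane, stood at 148.83, 149.15 and 144.02 FPKM in the 3 untreated libraries, the highest of the 10 and rank 432 among the 16199 listed genes. DSP, the link to keratin, followed at 113.69, 105.14 and 110.66 FPKM. DSG2, the desmoglein also found in simple epithelia, stood at 93.55, 89.48 and 101.75 FPKM. After these came PKP3 with a mean of 72.8 FPKM ± 2.95 (SD, n = 3), DSC3 with 52.9 ± 1.33, PKP2 with 37.6 ± 1.99, DSG3 with 31.7 ± 2.76 and DSC2 with 24.7 ± 0.385. No neighbours in this order of 8 genes overlapped in the untreated libraries. The closest steps were from DSP to DSG2, a 1.16-fold difference of the means, and from PKP2 to DSG3, at 1.18-fold. JUP, the plakoglobin gene and not one of the 10, exceeded all of them with 633.80, 629.38 and 598.01 FPKM.

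DSG1 and DSC1, the pair of cadherins typical of differentiated upper epidermis, were near 0. DSG1 had 1, 0 and 0 expected counts in untreated libraries, 0, 1 and 0 with EGF, and 2, 5 and 5 with bleogen pB1. DSC1 had 1, 2 and 6, then 0, 0 and 1, then 2, 3 and 0. Both were below the count filter in the tests, and no fold change is given for them, since most libraries were at or under 3 counts.

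The order changed with EGF. PKP1 still led at a mean of 116 FPKM ± 1.31, but PKP3 (87.5 ± 2.54) and DSG2 (83.2 ± 2.79) now preceded DSP (64.1 ± 9.62), and the ranges of DSC3, PKP2 and DSG3 overlapped from each to the next. With bleogen pB1 the order of the first 5 was that of untreated cells, and DSG3 (37.8 ± 1.56) stood above PKP2 (33.1 ± 1.04) with no overlap.

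The 6 cadherin genes lie together on chromosome 18 with the hair-associated desmoglein DSG4, in a stretch of 560 kb (GENCODE release 44, GRCh38). The desmocollins are on the minus strand in the order DSC3, DSC2, DSC1, and the desmogleins follow on the plus strand in the order DSG1, DSG4, DSG3, DSG2. The expressed genes were those at both ends of the cluster. The mean level in untreated cells was 52.9 FPKM for DSC3 and 24.7 for DSC2 at one end, 31.7 for DSG3 and 94.9 for DSG2 at the other, and 0.033, 0.0033 and 0.01 for DSC1, DSG1 and DSG4 between them. DSP lies on chromosome 6, PKP1 on chromosome 1, PKP2 on chromosome 12 and PKP3 on chromosome 11. Annotated antisense or opposite-strand genes overlap DSG1, DSG2, DSC1, DSC2, PKP2 and DSP. None of these is listed in the files, and whether the counting used the strand is not given in the sources used here, so reads of such a pair could not be told apart.

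The 250 bases before the annotated start were read from RefSeq (GRCh38.p14) for 8 of the 10 genes, all but PKP2 and PKP3. The first pair is shown because an expressed and a nearly silent desmoglein share a stretch of sequence. The 20 bases in capitals are the longest run that any pair of the 8 windows had in common, the next longest being of 11 bases. They start 120 bases before DSG1 and 78 bases before DSG3. Among 35116 promoter windows of the same length, 2 held this run on the strand of the gene, those of DSG1 and DSG3. DSG1 is at chr18:31317910-31318159 and DSG3 at chr18:31447491-31447740, both on the plus strand.
DSG1: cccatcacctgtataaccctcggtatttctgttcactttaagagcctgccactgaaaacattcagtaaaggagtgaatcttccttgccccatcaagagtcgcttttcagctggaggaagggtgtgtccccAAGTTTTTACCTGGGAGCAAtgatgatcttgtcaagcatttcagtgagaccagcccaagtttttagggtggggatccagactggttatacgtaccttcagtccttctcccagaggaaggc
DSG3: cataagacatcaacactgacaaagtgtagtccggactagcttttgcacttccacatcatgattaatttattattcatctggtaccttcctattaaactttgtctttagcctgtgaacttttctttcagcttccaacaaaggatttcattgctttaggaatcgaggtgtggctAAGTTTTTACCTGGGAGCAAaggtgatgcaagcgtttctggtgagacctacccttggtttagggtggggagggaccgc

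The windows were then searched on both strands for 4 motifs: the AP-1 site TGANTCA (in 6.57% of the 35116 windows), the E-box CACCTG (17.5%), the GC box GGGCGG (42.6%) and TATAAA (10.7%). The window of DSP held 7 GC boxes, of which a single pair overlapped by position, and 2 E-boxes. DSG2 held 2 of each, DSC2 1 of each, PKP1 1 GC box and DSG1 1 E-box, and no match of one motif overlapped a match of another. By the outermost GENCODE start, the whole window of DSP and the GC box of PKP1 lie inside their genes. The windows of DSG3, DSC1 and DSC3 held none of the 4, and none of the 8 windows held AP-1 or TATAAA. DSG2, DSC2 and DSC3 are shown because both desmocollins fell with EGF and DSG2 did not pass that test. Capitals mark motif matches, and for the desmocollins only the bases before the outermost GENCODE start are printed, which leaves out the GC box of DSC2. DSG2 is at chr18:31497927-31498176 on the plus strand, DSC2 at chr18:31102523-31102671 and DSC3 at chr18:31042816-31042992, both on the minus strand.
DSG2: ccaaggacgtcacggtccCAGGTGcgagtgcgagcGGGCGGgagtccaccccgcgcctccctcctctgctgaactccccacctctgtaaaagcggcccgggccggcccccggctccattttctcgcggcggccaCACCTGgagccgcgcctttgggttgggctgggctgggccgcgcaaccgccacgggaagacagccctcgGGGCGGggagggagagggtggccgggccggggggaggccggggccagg
DSC2: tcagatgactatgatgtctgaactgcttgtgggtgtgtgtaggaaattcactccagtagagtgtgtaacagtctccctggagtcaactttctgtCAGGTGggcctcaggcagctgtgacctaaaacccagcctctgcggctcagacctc
DSC3: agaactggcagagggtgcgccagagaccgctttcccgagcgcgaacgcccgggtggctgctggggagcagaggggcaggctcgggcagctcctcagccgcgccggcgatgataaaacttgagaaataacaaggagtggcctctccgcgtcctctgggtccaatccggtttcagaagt

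Compared with untreated cells, EGF lowered DSP and both expressed desmocollins, lowered PKP1 and, by a small amount, PKP2, and raised PKP3. DSG2 and DSG3 did not pass the test. The quasi-likelihood test of edgeR, adjusted by Benjamini-Hochberg over 12394 genes, gave 6 of the 8 tested genes an adjusted p of at most 0.05, where 66.1% of all genes tested had one. Of these, 1 was higher and 5 were lower (32.4% and 33.6% of all genes). The CPM of EGF-treated and untreated libraries did not overlap in 7 of the 8, and in 70.4% of all genes. With the study's additional limit of 0.5 on the absolute log2 fold change, 2 genes were called, both lower (DSC2 and DSP), against 36.9% of all genes tested in either direction and 21.8% lower. The median log2 fold change of the 8 was -0.21, and that of all genes tested was -0.01. Below, the value after ± beside a log2 fold change is its standard error (SE).

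DSP fell 1.63-fold. The FPKM values were 113.69, 105.14 and 110.66 in untreated and 74.28, 55.15 and 62.95 in EGF-treated libraries. The groups did not overlap, although the EGF-treated libraries spread over a wider range than the untreated ones. The log2 fold change was -0.70 ± 0.09 (adjusted p = 2.8e-05, edgeR).

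Among the desmocollins, DSC2, the form shared with simple epithelia, fell 1.61-fold. Its FPKM values were 24.74, 24.36 and 25.13 in untreated and 14.87, 14.77 and 14.59 in EGF-treated libraries, so that each group was tight and far from the other. The log2 fold change was -0.69 ± 0.05 (adjusted p = 3.7e-07, edgeR). DSC3, the basal form, fell 1.41-fold, from 54.37, 51.89 and 52.32 to 39.75, 32.38 and 35.55 FPKM. Its log2 fold change of -0.498 ± 0.07 (adjusted p = 5.2e-05, edgeR) was just short of the limit of 0.5, and it was called as well with several other settings, given in the closing section. In DSC3 as in DSP, EGF replicate 1 was the highest and EGF replicate 2 the lowest of the treated libraries, whereas in DSC2 all 3 were alike. Leaving out 1 of the 6 libraries at a time kept the log2 fold change between -0.82 and -0.60 for DSP, between -0.69 and -0.67 for DSC2 and between -0.58 and -0.42 for DSC3.

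The desmogleins differed little between EGF-treated and untreated cells. DSG2 had 93.55, 89.48 and 101.75 FPKM in untreated and 85.45, 80.09 and 84.12 in EGF-treated libraries, with all treated values lower but close to the untreated ones. Its log2 fold change was -0.13 ± 0.06 (adjusted p = 0.073, edgeR), and 6 of 11 other settings put it at an adjusted p of at most 0.05. DSG3, a desmoglein of the lower epidermal layers, had 30.53, 29.80 and 34.90 FPKM in untreated and 32.20, 31.24 and 32.89 in EGF-treated libraries, which overlapped. Its log2 fold change was 0.08 ± 0.06 (adjusted p = 0.30, edgeR) and turned to -0.03 with upper-quartile factors.

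The plakophilins moved in different directions. PKP1 fell 1.22-fold, from 148.83, 149.15 and 144.02 to 117.02, 114.71 and 116.95 FPKM, with a clear gap between the groups (log2 fold change -0.28 ± 0.05, adjusted p = 0.00035, edgeR). PKP3, the plakophilin found in most epithelia, rose 1.26-fold, from 71.24, 70.92 and 76.18 to 85.58, 86.43 and 90.34 FPKM, again without overlap (log2 fold change 0.33 ± 0.06, adjusted p = 0.0005, edgeR). PKP2, the plakophilin of simple epithelia and heart, went from 38.25, 35.32 and 39.11 to 32.73, 33.37 and 31.99 FPKM. That is a log2 fold change of -0.14 ± 0.05 (adjusted p = 0.040, edgeR), and it kept an adjusted p of at most 0.05 in 1 of the 6 fits that left out a library, the one without untreated replicate 2.

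**Figure D1:**
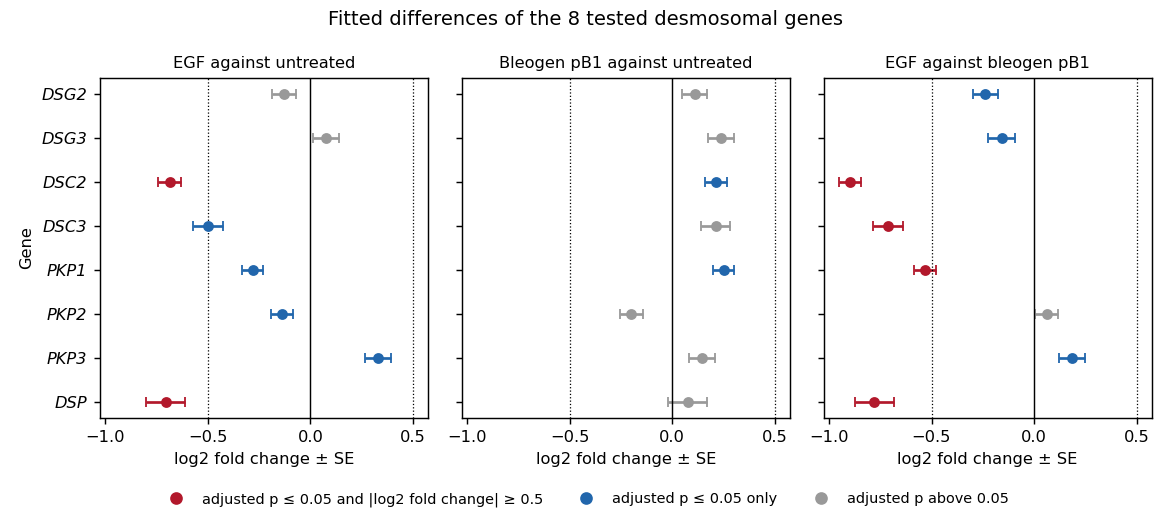
Log2 fold change with its SE for the 8 tested genes in the 3 comparisons, from the edgeR fit of all 9 libraries, with dotted lines at 0.5 in either direction. The values of DSC2 and DSP lie beyond -0.5 in the comparison of EGF with untreated cells, none lies beyond 0.5 in either direction for bleogen pB1, and DSC2, DSC3, PKP1 and DSP lie beyond -0.5 for EGF against bleogen pB1.

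Since a share within a family does not depend on how libraries are scaled, the FPKM of each paralog was also divided by the sum of its family. PKP1 made up 57.6%, 58.4% and 55.5% of the plakophilin FPKM in untreated libraries and 49.7%, 48.9% and 48.9% with EGF. PKP3 went from 27.6%, 27.8% and 29.4% to 36.4%, 36.9% and 37.8%. The mean difference was -8.01 percentage points for PKP1 and 8.75 points for PKP3, and the groups did not overlap for either. The share of PKP2 differed by -0.74 points, with overlap. The family sum itself was 258 FPKM ± 2.04 in untreated and 236 ± 2.55 in EGF-treated libraries.

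For the cadherins the shift lay between families more than within them. The summed desmocollin FPKM was 79.12, 76.27 and 77.52 in untreated and 54.62, 47.15 and 50.15 in EGF-treated libraries, while the summed desmoglein FPKM was 124.09, 119.28 and 136.65 and then 117.65, 111.34 and 117.01. The ratio of desmocollin to desmoglein FPKM was 0.615 ± 0.041 for untreated libraries, 0.439 ± 0.022 with EGF and 0.644 ± 0.041 with bleogen pB1 (SD, n = 3 each). All EGF-treated values, at most 0.464, were below all others, at least 0.567. DSC3 supplied 68.1% of the desmocollin sum in untreated and 70.8% in EGF-treated libraries, which overlapped, and DSG2 supplied 75.0% and 72.2% of the desmoglein sum, which did not. An exact permutation test (two-sided) of 3 against 3 libraries cannot give a p under 0.1. The shares of DSG2, DSG3, PKP1 and PKP3 reached this smallest p for EGF against untreated, and each was 0.14 after adjustment over the 21 share tests.

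With bleogen pB1, 7 of the 8 tested genes had a higher fitted level than in untreated cells. The genes that passed the test were PKP1 and DSC2, both higher. These 2 of 8 compare with 4.11% of all genes tested at an adjusted p of at most 0.05 (1.56% higher). None of the 8 was called once the limit of 0.5 was added, where 1.48% of all genes were called (0.218% higher). The libraries did not overlap in 5 of the 8, and in 29.0% of all genes. At an unadjusted p under 0.05, edgeR had 6 of the 8, against 22.2% of all genes tested. DESeq2 called 0 at an adjusted p of at most 0.05 with the limit of 0.5. The median log2 fold change of the 8 was 0.18, and that of all genes tested was -0.001.

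PKP1 rose 1.19-fold, from 148.83, 149.15 and 144.02 FPKM to 178.65, 174.12 and 179.40. All treated libraries were above all untreated ones by a gap several times the spread of either group. The log2 fold change was 0.25 ± 0.05 (adjusted p = 0.019, edgeR), and 2 of the 6 fits that left out a library (those without bleogen pB1 replicate 1 or 2) kept an adjusted p of at most 0.05. DSC2 rose 1.16-fold, from 24.74, 24.36 and 25.13 to 30.09, 27.51 and 29.45 FPKM. Its log2 fold change was 0.21 ± 0.05 (adjusted p = 0.047, edgeR), and 1 of 6 such fits (without bleogen pB1 replicate 2) kept it.

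The others did not pass in this edgeR fit. By DESeq2 at an adjusted p of at most 0.05 alone, DSG3 (0.013) and PKP2 (0.016) passed beside PKP1 (4.1e-06) and DSC2 (0.0096). Of 11 other settings, PKP1 passed in 11, DSC2 in 8, PKP2 in 4, DSG3 in 2 and DSC3 in 1. DSC3 had 54.37, 51.89 and 52.32 FPKM in untreated and 63.27, 59.75 and 62.77 in bleogen pB1-treated libraries, without overlap, at a log2 fold change of 0.21 ± 0.07 (adjusted p = 0.11, edgeR). DSG3 stood at 36.39, 39.49 and 37.60 FPKM with bleogen pB1, all above the untreated values, at a log2 fold change of 0.24 ± 0.06 (adjusted p = 0.056, edgeR). PKP2 was the gene with a lower fitted level, at 32.29, 34.29 and 32.79 FPKM against 38.25, 35.32 and 39.11 (log2 fold change -0.20 ± 0.05, adjusted p = 0.060, edgeR). DSP differed least relative to its spread, at 123.44, 108.18 and 117.49 FPKM with bleogen pB1, which overlapped the untreated values (log2 fold change 0.07 ± 0.09, adjusted p = 0.68, edgeR). DSG2 and PKP3 overlapped with untreated as well, at log2 fold changes of 0.11 and 0.14 (adjusted p = 0.30 and 0.20, edgeR).

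The share of PKP2 in the plakophilin sum was 14.8%, 13.8% and 15.1% in untreated and 11.3%, 11.6% and 11.1% in bleogen pB1-treated libraries, a difference of -3.23 points without overlap. The share of PKP1 was 3.57 points higher, also without overlap. In the exact permutation test both had p = 0.1, the smallest possible, and 0.14 after adjustment. The shares of DSC2 and DSC3 differed from untreated by 0.016 and 0.0085 points, far less than the spread between libraries.

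EGF and bleogen pB1 were then compared directly, at doses that differed. DSC2, DSP, DSC3 and PKP1 were lower with EGF and were called, 4 of the 8 tested genes, where 28.8% of all genes tested were called in either direction and 18.0% lower. At an adjusted p of at most 0.05 alone, 7 passed, where 58.2% of all genes did. Of these, PKP3 was higher with EGF and 6 were lower (28.5% and 29.7% of all genes). The libraries did not overlap in 7 of the 8, and in 62.4% of all genes. The untreated libraries enter this comparison only through the gene filter, the scaling factors and the shared estimate of the spread. The EGF-treated libraries are those of the comparison above, so the values here are not a separate measurement of the EGF level.

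DSC2 was 1.86-fold lower with EGF than with bleogen pB1 (log2 fold change -0.90 ± 0.05, adjusted p = 4.9e-08, edgeR), the largest of the 8 differences. DSP was 1.72-fold lower (-0.78 ± 0.09, adjusted p = 1.9e-05, edgeR), DSC3 1.64-fold lower (-0.71 ± 0.07, adjusted p = 4.2e-06, edgeR) and PKP1 1.45-fold lower (-0.53 ± 0.05, adjusted p = 2.9e-06, edgeR). In each of these 4 genes the EGF-treated libraries were the lowest 3 of all 9, and all kept an adjusted p of at most 0.05 in all 6 fits that left out a library and in all 11 other settings. DSG2 was 1.18-fold lower with EGF (log2 fold change -0.24, adjusted p = 0.0042, edgeR), its EGF-treated libraries were also the lowest 3 of all 9, and it passed in those same fits.

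DSG3 (log2 fold change -0.16, adjusted p = 0.048, edgeR) and PKP3 (0.19, adjusted p = 0.023, edgeR) passed by little. Of 11 other settings, 7 kept an adjusted p of at most 0.05 for DSG3 and 6 for PKP3. Of the fits that left out a library, DSG3 kept it only without bleogen pB1 replicate 1, and PKP3 lost it without EGF replicate 3 and without bleogen pB1 replicate 1 or 3. PKP2 did not differ beyond its spread (log2 fold change 0.06 ± 0.05, adjusted p = 0.36, edgeR). DSG1, below the count filter, reached an adjusted p of 0.035 for EGF against bleogen pB1 when edgeR was run with no filter and 0.10 with DESeq2, on totals that rest on 0 to 5 counts per library.

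The deposited gene length is an average over the transcripts of a gene in a library and varied for DSC2, DSC3, PKP2, PKP3 and DSP. For the first 4 the values stayed within 0.179% of each other. DSP, with 3 listed transcripts, ranged over 1.94%. Its length was 9222.83, 9141.84 and 9280.88 bases in untreated libraries, 9251.62, 9303.58 and 9318.85 with EGF, and 9263.42, 9241.90 and 9275.46 with bleogen pB1. The EGF mean was 76.2 bases longer than the untreated one, with overlap (exact permutation test, two-sided, p = 0.2, adjusted p = 0.50 over 15 length tests). None of the 15 tests went below an adjusted p of 0.30. DSG2, DSG3 and DSC3 had fractional expected counts in all 9 libraries, as arises where reads that match several places are shared out, so their levels carry that uncertainty.

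To find the genes most like DSP, log2 CPM relative to the gene's own untreated mean was compared over the 9 libraries, as a description. The 5 closest of 12393 other tested genes were SRD5A3, a reductase of the dolichol pathway, ZNF532, a zinc finger gene, FNBP1L, an F-BAR protein of membrane and actin remodelling, PIGQ, of the GPI anchor pathway, and CDKN1B, which encodes the cell cycle inhibitor p27. Their root mean square difference from DSP was 0.042 to 0.073 on the log2 scale. DSC2 came at rank 126 (0.13) and DSC3 at rank 251 (0.15), while PKP1 was at 2099 (0.29), DSG2 at 3297 (0.36) and PKP3 at 8378 (0.62).

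JUP fell with EGF, from 633.80, 629.38 and 598.01 to 475.45, 531.63 and 479.96 FPKM (log2 fold change -0.27 ± 0.07, adjusted p = 0.0068, edgeR). With bleogen pB1 it stood at 624.39, 525.10 and 592.77 FPKM (log2 fold change -0.12, adjusted p = 0.38, edgeR). Of the 10 other junction genes on a list of desmosomal partners and cornified-junction parts, JUP among them, 8 were tested, and DSG4 and CDSN were below the count filter. With EGF, KAZN, a periplakin-binding protein, was called higher (log2 fold change 0.77, adjusted p = 0.0010, edgeR) and TCHP, a keratin-binding protein, lower (-0.73, adjusted p = 0.0085, edgeR). None of these 8 was called with bleogen pB1 by edgeR or DESeq2, and PNN (pinin) was the 1 gene with an unadjusted p under 0.05 (log2 fold change 0.28, adjusted p = 0.044, edgeR). For EGF against bleogen pB1, TCHP alone was called (-0.56, adjusted p = 0.039, edgeR). Its libraries overlapped, at 13.70, 5.69 and 9.72 CPM with EGF and 15.29, 13.55 and 14.09 with bleogen pB1. Over all genes tested, 36.9% were called with EGF, 1.48% with bleogen pB1 and 28.8% between both agents. An unadjusted p under 0.05 was found in 22.2% with bleogen pB1. The median log2 fold change of the list was 0.05 for EGF and 0.07 for bleogen pB1, against untreated.

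Of the 9 keratins that desmosomes anchor, 6 were called higher with EGF and 2 lower (15.1% and 21.8% of all genes tested). KRT6A, a keratin of activated epidermis, rose by a log2 fold change of 2.29 (adjusted p = 3.8e-10, edgeR) and its partner KRT16 by 1.95 (adjusted p = 1.7e-07, edgeR), the simple-epithelial KRT8 rose by 1.89 (adjusted p = 8.0e-09, edgeR), and KRT1, of differentiated layers, had a log2 fold change of -4.08 (adjusted p = 5.1e-07, edgeR). Of the other 4 called, KRT18 (1.81), KRT14 (0.88) and KRT10 (0.67) were higher and KRT5 (-1.12) was lower. With bleogen pB1, 3 of 9 were called, all higher, against 0.218% of all genes tested. They were KRT16 (0.93), KRT1 (0.83) and KRT6A (0.52), with edgeR adjusted p of 0.0036, 0.048 and 0.0026. KRT1 thus lay on opposite sides of untreated, and for EGF against bleogen pB1 its log2 fold change was -4.91 (adjusted p = 9.1e-08, edgeR). Its EGF-treated libraries were at 0.60, 0.35 and 0.29 CPM, where 3 counts are 0.141 to 0.147 CPM. The size of its EGF differences thus rests on few counts. KRT17, not called with either agent, also lay on opposite sides of untreated. Its log2 fold change was -0.46 with EGF (adjusted p = 0.0016, edgeR) and 0.47 with bleogen pB1 (adjusted p = 0.027, edgeR). For EGF against bleogen pB1, 4 keratins were called higher with EGF and 3 lower (10.8% and 18.0% of all genes tested). KRT17 was among the lower ones (-0.94, adjusted p = 9.5e-06, edgeR). Reads of KRT6A, KRT8, KRT14, KRT16, KRT17 and KRT18 can be shared with near-identical paralogs or pseudogenes.

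Of the 8 transcription factors tied to epidermal genes, 2 were called higher with EGF, KLF4 (log2 fold change 0.69, adjusted p = 0.00010, edgeR) and TP63 (0.50, adjusted p = 0.00016, edgeR), and 1 lower, ZNF750, an epidermal differentiation factor (-2.52, adjusted p = 0.00016, edgeR). Over all genes tested, EGF gave calls for 15.1% higher and 21.8% lower. None of the 8 was called with bleogen pB1 by edgeR or DESeq2, with 2 of 8 at an unadjusted p under 0.05 in edgeR (22.2% of all genes tested). For EGF against bleogen pB1, ZNF750 (-2.73, adjusted p = 0.00010, edgeR) and GRHL3 (-0.89, adjusted p = 0.0066, edgeR) were called lower, against 18.0% of all genes tested. KLF4 was just short of the limit of 0.5 by edgeR (0.49, adjusted p = 0.0017) and was called higher by DESeq2. The ZNF750 values rest on few counts, since its level with EGF was 0.198 ± 0.15 CPM (SD, n = 3) and 3 counts are 0.141 to 0.147 CPM in those libraries. SNAI2 and ZEB1, repressors of epithelial cadherins, did not pass in any comparison.

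Among 9 proteases and regulators of desmosomal proteins, 3 were called lower with EGF, against 21.8% of all genes tested. These were the skin protease KLK5 (log2 fold change -0.59, adjusted p = 8.8e-05, edgeR), ADAM10, which cuts cadherins at the cell surface (-0.52, adjusted p = 5.2e-06, edgeR), and ERBIN, a scaffold protein (-0.51, adjusted p = 4.6e-06, edgeR). By edgeR and by DESeq2 none was called with bleogen pB1 or between both agents, with 2 and 7 of 9 at an unadjusted p under 0.05 in edgeR (22.2% and 62.6% of all genes tested). ERBIN had a log2 fold change of -0.33 with bleogen pB1 (adjusted p = 0.0047, edgeR), below the limit of 0.5. Among the 5 adherens junction genes, EGF gave 3 calls, all lower, against the same 21.8% of all genes tested. They were CTNND1 (p120-catenin, -0.75, adjusted p = 6.8e-07, edgeR), CDH1 (E-cadherin, -0.66, adjusted p = 3.1e-06, edgeR) and CDH3 (P-cadherin, -0.50, adjusted p = 2.0e-05, edgeR), while the fitted log2 fold change of the beta-catenin gene CTNNB1 was -0.001 (adjusted p = 0.99, edgeR). None was called with bleogen pB1 by edgeR or DESeq2, with 2 of 5 at an unadjusted p under 0.05 in edgeR (22.2% of all genes tested). CTNND1 (-0.66) and CDH1 (-0.50) were called lower for EGF against bleogen pB1 (18.0% of all genes tested), with edgeR adjusted p of 3.1e-06 and 4.3e-05. CDH3 for EGF and CDH1 between both agents lay so near the limit of 0.5 that DESeq2 did not call them.

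**Figure D2:**
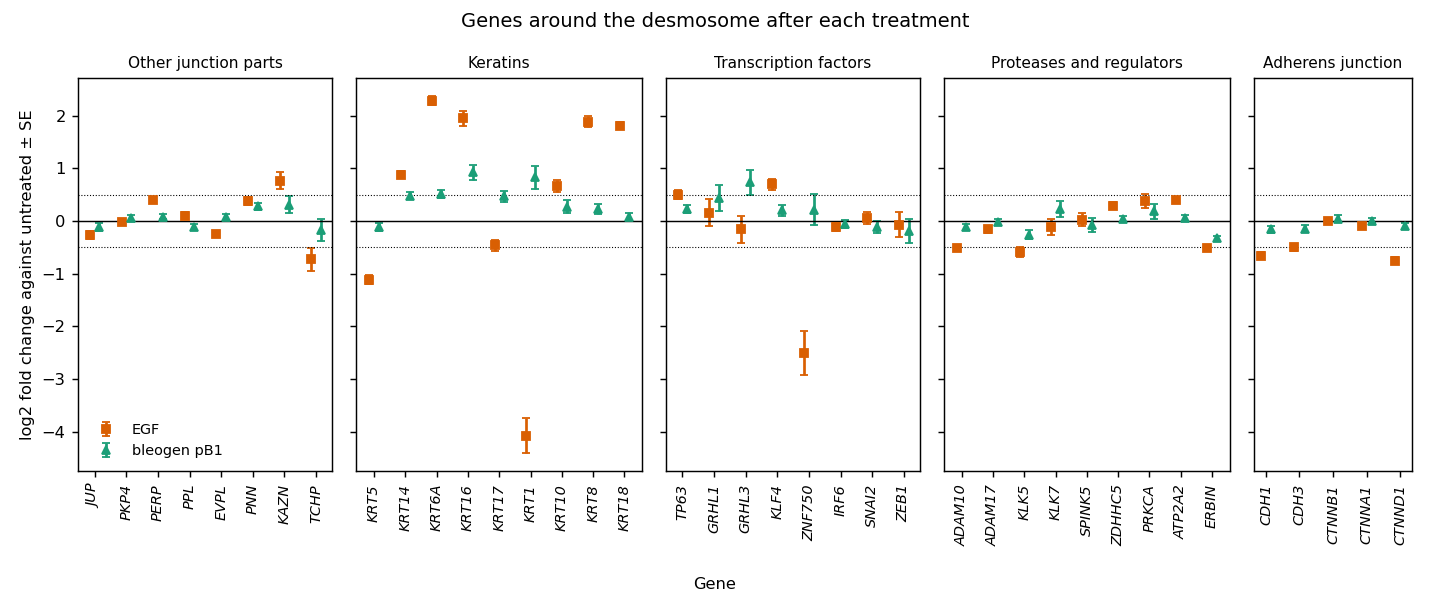
Log2 fold change against untreated with its SE for the tested genes of 5 lists, squares for EGF and triangles for bleogen pB1, with dotted lines at 0.5 in either direction. The keratins spread from -4.08 to 2.29 with EGF, and for bleogen pB1 the values of the other 4 lists beside the keratins stay between -0.33 and 0.73.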

How the data were processed

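The authors had RNA of HaCaT cells sequenced at BGI and mapped to GRCh38.p12. The counting program and its use of strand are not given in the sources used here. The labels and the methods name different extraction kits and sequencing platforms. The authors deposited expected counts, which are unscaled estimates per gene. The FPKM deposited by the authors divide them by gene length and counted fragments, and 0.01 is the lowest FPKM above 0 listed. A gene with no entry counted as 0.

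After rounding, the counts entered edgeR 4.0.16 (R 4.3.3; filterByExpr, 12394 genes kept, TMM factors, glmQLFit and glmQLFTest, 9 libraries in 1 fit, Benjamini-Hochberg over all genes tested). The study used DESeq2, run here (1.42.0) as an alternative. "Called" means an adjusted p of at most 0.05 and an absolute log2 fold change of at least 0.5, the study's thresholds. The SE is the absolute log2 fold change over the square root of F. Limma 3.58.1 on log2(FPKM + 1), other factors, other filters, a replicate block and leaving out each library were the other alternatives. The main edgeR fit, DESeq2 and limma on log2(FPKM + 1) were tested on simulated data, and the other alternatives were not. The simulation changed far fewer genes than were called with EGF, as many higher as lower, at a single spread. It therefore does not show how these fits do when as many genes change as with EGF. Shares and deposited lengths were compared by exact permutation tests with Python 3.11.15.

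The 10 genes and all lists were chosen with earlier results of these data known. The text names these 10, JUP, the called genes of each list with the largest absolute log2 fold change (at most 4 per list and comparison) and the 5 genes nearest to DSP. PNN, DSG4, CDSN, CTNNB1, SNAI2, ZEB1, KRT5, KRT10, KRT14, KRT17 and KRT18 were named after their values were seen. Gene positions are from GENCODE release 44 and sequences from RefSeq, 1-based.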

Additional observations from a re-analysis of the deposited data

How the results depend on the processing

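The calls of DSC2 and DSP for EGF against untreated, and of DSC2, DSC3, PKP1 and DSP for EGF against bleogen pB1, held in every alternative at a log2 limit of 0.5. With adjusted p alone, 6 of the 10 genes passed for EGF against untreated, 2 for bleogen pB1 and 7 for EGF against bleogen pB1, and with a limit of 1 there were 0 in each. DSC3 joined the calls for EGF against untreated with upper-quartile factors, no factors, a filter of 10 counts in every library, the limma fits, the replicate block and the fits without untreated replicate 2 or 3 or EGF replicate 1 (2 to 3 genes called over the 6 such fits). Upper-quartile factors moved the median log2 fold change of all genes for EGF from -0.013 to -0.118. With them DSG3 turned to -0.0266 for EGF against untreated. PKP2 for EGF against bleogen pB1 turned to -0.027 with them, to -0.0106 with no factors and to -0.0179, -0.0184 and -0.0179 in the 3 limma fits, the cause of which was not tested. No filter added DSG1 to the calls of EGF against bleogen pB1, which made 5. Of the other values of single genes, 7, 10 and 0 moved to an adjusted p of at most 0.05 and 9, 12 and 17 moved out of it, for EGF against untreated, bleogen pB1 against untreated and EGF against bleogen pB1.

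Over all genes, replicate numbers paired the libraries weakly at most, which does not settle it for single genes. In every group DSP was highest in replicate 1 and lowest in replicate 2. On average the deviations of same-numbered libraries correlated by 0.028 (EGF and untreated), 0.096 (bleogen pB1 and untreated) and 0.040 (both agents). Those of differently numbered libraries gave -0.014, -0.049 and -0.020 in the same order of comparisons. With the replicate block, 3, 0 and 4 of the 10 genes were called in these comparisons, and PKP2 for EGF (adjusted p = 0.057), DSC2 for bleogen pB1 (0.056) and DSG3 between both agents (0.051) no longer had an adjusted p of at most 0.05.

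Leaving out libraries moved the differences in share of bleogen pB1 from untreated over 0: -0.29 to 0.29 points for DSC2 (-0.01 by expected counts), -0.29 to 0.33 for DSC3 and -1.19 to 0.58 for PKP3. Lengths did so for DSC2 with EGF (-2.14 to 0.24 bases), and between both agents for DSC2 (-0.96 to 1.35) and PKP2 (-0.65 to 0.44). None of these differences was called. Depth limits what can be said of DSG1 and DSC1, at 0 to 6 counts per library.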
